A study of Homo sapiens with 8 samples.

Results

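The pericentromeric flanks of human chromosome 7 were examined for H3K9me3, the trimethylation of lysine 9 on histone H3, in the windows chr7:56300001-58000000 on the short arm (7p side, 1.7 Mb) and chr7:61700001-67000000 on the long arm (7q side, 5.3 Mb) of hg19. The windows were given by position and not by any measured value, and were cut into tiles of 10 kb, 170 on the 7p side and 530 on the 7q side. These 700 tiles are a small part of the 309555 tiles of hg19. The mark was measured by chromatin immunoprecipitation and sequencing (ChIP-seq) in PC9, an established line of human non-small cell lung cancer cells. All groups are cells of this 1 line, with no other genetic change named. Parental cells were untreated. DTP cells were those that survived 8 days in 1 uM erlotinib, an inhibitor of the EGFR kinase. DTP + TSA cells were such survivors, still within the same erlotinib treatment, that also received 50 nM trichostatin A (TSA), an inhibitor of histone deacetylases, for 5 hours. Of the 8 samples in the series, the 3 H3K9me3 libraries are used here, and 2 H3K4me3 libraries and 3 inputs were not analysed here. Each group has 1 library, so no difference below has a replicate check and no test was possible.

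H3K9me3 marks heterochromatin, the compact and mostly silent part of the genome, and is laid down by methyltransferases that proteins of the KRAB zinc finger class recruit through the corepressor TRIM28 (KAP1). Clusters of KRAB zinc finger genes, which arose by repeated duplication, carry broad H3K9me3 domains themselves in many cell types. Satellite repeats around centromeres carry the same mark. In the order of the GRCh38.p14 RefSeq table, 3 of the 11 named protein-coding genes from ZNF713 to ZNF716 on the short arm are zinc finger genes (ZNF713, ZNF479 and ZNF716). On the long arm, 10 of the 12 from ZNF727 to ZNF92 are (ZNF727, ZNF735, ZNF679, ZNF736, ZNF680, ZNF107, ZNF138, ZNF273, ZNF117 and ZNF92), the others being the endogenous retroviral gene ERV3-1 and its readthrough with ZNF117. Beyond ZNF92 follow genes of other classes, among them GUSB (beta-glucuronidase), ASL (argininosuccinate lyase), KCTD7, SBDS (a ribosome maturation factor) and TYW1. An hg19 annotation was not used here, so no gene was assigned to a block, and the zinc finger content of the windows was not checked against the data.

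The 3 lists of enriched intervals held 23842 intervals for parental cells, 47866 for DTP and 53000 for DTP + TSA. Of these, 235, 278 and 340 had their midpoint in the region. The read depths of the libraries are unknown. Intervals became shorter from parental cells to DTP both in the region, where the median length was 6200 bp and then 4000 bp, and over the whole lists, where it was 3800 and then 2400 bp. The longest interval in the region was 134.4 kb in parental cells, 91.8 kb in DTP and 64.8 kb with TSA. Intervals of over 16 kb numbered 45, 21 and 24 in that order. A shorter interval list for parental cells and a longer one for DTP bear on every count below, since a different depth or calling threshold can change both number and length of intervals, and their part in the results was not tested.

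H3K9me3 covered 2996 kb of the region in parental cells, 1988 kb in DTP and 2124 kb after TSA, which is 42.8%, 28.4% and 30.3% of its length. DTP thus held 0.664 times the parental covered length here, while over the rest of hg19 the covered length in DTP was 1.33 times the parental one (3.96% of the length in parental cells, 5.27% in DTP, 5.73% with TSA). The rest of chromosome 7 also rose from 6.04% to 7.11%, a ratio of 1.18. The zinc finger band 19p12, set beside the region for comparison, fell from 90.2% to 55.6%, a ratio of 0.616. The fall near the chromosome 7 centromere was thus of about the size seen in 19p12. The direction elsewhere depends on how the lists are cut. With the same number of strongest intervals from each list, which leaves the parental list whole, the ratio was 0.716 over the rest of hg19. It was then 0.746 over the rest of chromosome 7, 0.353 in the region and 0.376 in 19p12. With intervals at or above the median signal of their own library, the ratio was 1.26 over the rest of hg19 and 1.16 over the rest of chromosome 7. It was 0.504 in the region and 0.414 in 19p12 under that setting. The ratio of the region was thus below that of the rest of hg19 under each of these settings, while the rest of hg19 fell only with equal numbers. This ratio counts newly covered sequence as well as lost sequence. With the lists as deposited, DTP lacked 43.2% of the parental covered sequence in the region, against 49.7% over all of hg19 and 39.4% in 19p12. By that share the region did not lose more than hg19. With TSA the covered length was 1.07 times that in DTP, against 1.09 times over the rest of hg19 and 0.988 times in 19p12. With equal numbers of intervals it was 0.979 times that in DTP, so the direction changed with this setting.

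**Figure D1:**
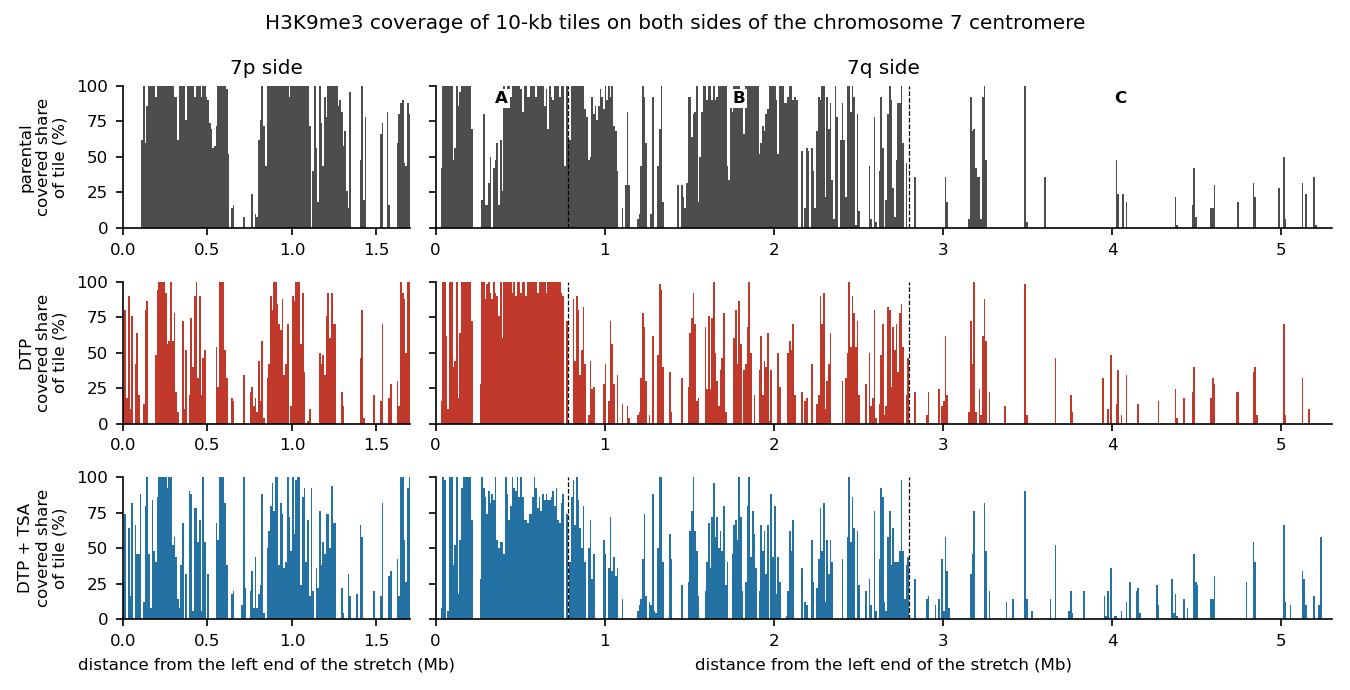
Covered share of each 10-kb tile (y axis, percent) against distance from the left end of the window (x axis, Mb) for the 7p side and the 7q side, with 1 row for each of the 3 H3K9me3 libraries and the 7q stretches A, B and C marked. Long stretches that are filled in parental cells are broken up in DTP on the 7p side and in the middle of the 7q side, whereas the 7q end nearest the centromere stays filled.

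Both sides of the centromere lost coverage. On the 7p side it went from 62.0% in parental cells to 36.2% in DTP and 43.0% with TSA. On the 7q side it went from 36.6% to 25.9% and 26.3%. Read in windows of 500 kb, the 7q side was not uniform, and it was divided into 3 stretches after these values were seen. Stretch A, chr7:61700001-62480000 next to the centromere, was 74.1% covered in parental cells, 80% in DTP and 69.8% after TSA. Stretch B, chr7:62480001-64500000, fell from 60.9% to 29.6% and stood at 34.1% with TSA, so DTP had 0.486 times the parental covered length. Stretch C, chr7:64500001-67000000, was sparsely marked throughout, at 5.35%, 6.02% and 6.32%, and 167 of its 250 tiles (66.8%) had no coverage in any library. Over the whole region 223 tiles (31.9%) had none, against 73.2% over hg19. The 500-kb window chr7:62200001-62700000, which spans the limit of stretches A and B, was 90.2% covered in parental cells and 65.2% in DTP, and the next window, inside stretch B, 33.7% and 19%.

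The tiles showed where the mark went. A tile was called lost when its covered share fell by at least 50 percentage points, gained when it rose by at least 50 points, and kept when it was at least 50% covered in both libraries and not lost. Of the 700 tiles, 120 (17.1%) were lost from parental cells to DTP, against 1.07% over all of hg19. Gained tiles numbered 12 (1.71%, against 1.26%) and kept tiles 166 (23.7%, against 1.28%). The starting level of the region was high, since 306 tiles (43.7%) were at least 50% covered in parental cells, against 2.96% over hg19. Among those 306 tiles, 120 (39.2%) were lost, against 36.0% over hg19, 41.96% over the rest of chromosome 7 and 32.8% in 19p12. Kept tiles made up 54.2%, against 43.5% over hg19 and 62.2% in 19p12. A further 20 tiles (6.54%, against 20.5%) met neither rule, and 59 (19.3%, against 24.1%) were at 0% in DTP. In DTP itself 191 tiles (27.3%, against 3.12% over hg19) were at least 50% covered, and in DTP + TSA 207 (29.6%, against 3.52%). So, per tile marked at the start, loss was close to that of the genome with the lists as deposited. With equal numbers of strongest intervals, which leaves the parental list whole, 210 of the 306 tiles (68.6%) were lost. With intervals at or above the median signal of their own library, 116 of 207 tiles (56.0%) were lost. The hg19 shares under these settings were not computed.

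Starting level for starting level the same held. The 211 tiles that were 90 to 100% covered in parental cells had a mean covered share of 60.2% in DTP, against 61.1% for 2665 such tiles elsewhere in hg19. The 95 tiles that started between 50 and 90% went from a mean of 71.4% to 38.1%, against 65.3% to 34.5% for 6181 tiles elsewhere. At the other end, the 297 tiles without parental coverage had a mean of 3.84% in DTP, against 2.98% elsewhere.

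**Figure D2:**
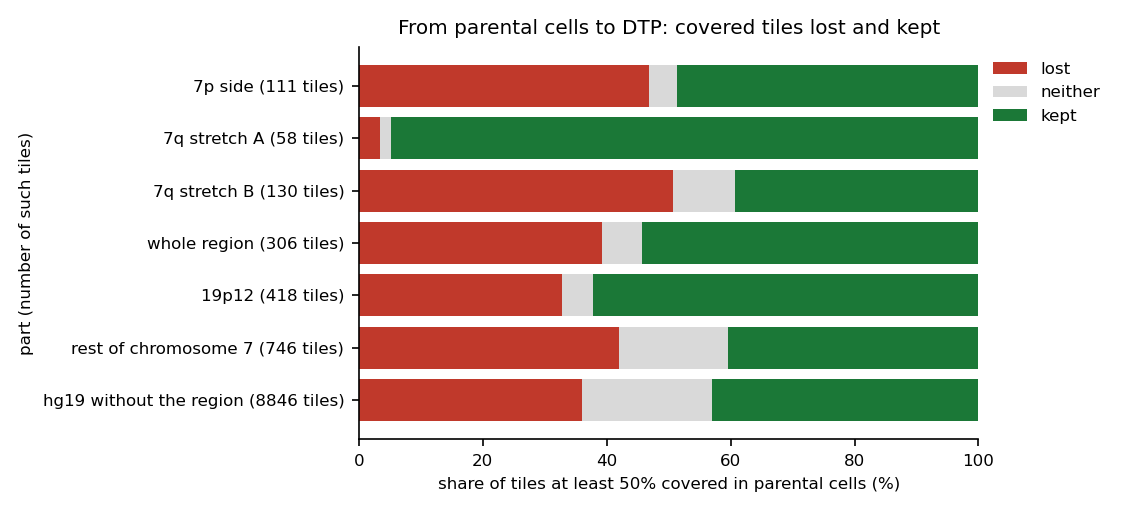
Share of the tiles that were at least 50% covered in parental cells (x axis, percent) called lost, neither or kept in DTP, with 1 bar for each of the 7p side, the 7q stretches A and B, the whole region, 19p12, the rest of chromosome 7 and hg19 without the region (y axis). Stretch A has 3.45% of its 58 tiles lost and stretch B has 50.8% of its 130; stretch C, with 7 tiles, is not drawn.

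By stretch the counts were as follows, with the limits of the stretches drawn after the coverage of the windows was seen, so that contrasts between them are a description. Stretch B lost 66 of 130 such tiles (50.8%) and kept 51 (39.2%). The 7p side lost 52 of 111 (46.8%) and kept 54 (48.6%). Stretch A lost 2 of 58 (3.45%) and kept 55 (94.8%). Stretch C held 7 such tiles, of which 0 were lost and 6 kept. The call on stretch A depends on how weak intervals are treated. When each library was limited to its 23842 strongest intervals by mean signal, 40 of the 58 tiles of stretch A (69.0%) were lost. Its coverage was then 74.1%, 27.7% and 22.2%. Under the same setting stretch B lost 98 of 130 tiles (75.4%) and the 7p side 69 of 111 (62.2%). That setting leaves the parental list whole and cuts only the other lists. With intervals at or above the median signal of their own library, which cuts all 3 lists, stretch A lost 5 of 21 tiles (23.8%). Its coverage was then 27.3%, 27.7% and 23.7%. Stretch B lost 61 of 92 tiles (66.3%) and the 7p side 49 of 89 (55.1%).

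The mean signal that the authors gave for an interval was ranked only within its own library. On the 7p side the parental signal was a median of 11.8 over lost tiles and 16.6 over kept tiles. In stretch B it was 8.81 over lost tiles (interquartile range 7.25 to 9.97) and 11.2 over kept tiles (9.48 to 12.2). Lost tiles were thus the weaker ones in parental cells on the 7p side and in stretch B, with overlapping ranges. Over the whole 7q side the medians were closer, at 8.87 over lost tiles and 9.55 over kept tiles. Elsewhere in hg19 the medians were 7.83 and 11.4. Stretch A went against this order, since its 55 kept tiles had a parental median of 7.36, below the lost tiles of stretch B. The 2 lost tiles of stretch A had a median of 45.8. The parental intervals of stretch A lay at the 28.2nd percentile of the parental list by mean signal (median), its DTP intervals at the 33.8th of the DTP list and its DTP + TSA intervals at the 5.65th of that list. Most of stretch A was thus broadly covered with a signal in the lower part of each list.

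Whole intervals were compared as well as tiles. On the 7p side 33 of 54 parental intervals (61.1%) overlapped an interval of DTP, and in stretch B 72 of 118 (61.0%) did, against 31 of 32 (96.9%) in stretch A and 64.1% over all of hg19. The shares on the 7p side and in stretch B were thus close to the genome's. Parental intervals of stretch B with an overlap had a median signal of 9.75, and those without one 6.90. Long intervals were rare in stretch B after erlotinib. It had 20 intervals of over 16 kb in parental cells, 1 in DTP and 4 after TSA, and the longest was 92.2 kb, 17.6 kb and 26.2 kb.

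Parental intervals were then joined over gaps of up to 5 kb into blocks of at least 10 kb, which gave 42 blocks with 3059 kb in total, 10 on the 7p side and 32 on the 7q side. A block was called lost when under 10% of it was covered in DTP, thinned from 10% to under 50%, and kept at 50% or more. Of the 42 blocks, 4 were lost (9.52%, 95% Clopper-Pearson interval 2.66 to 22.6%, counting error only), against 20.3% over hg19. Thinned blocks numbered 15 (35.7%, interval 21.6 to 52.0%, against 38.1%), and 23 blocks were kept (54.8%, interval 38.7 to 70.2%, against 41.6%). Neighbouring blocks are not independent and the hg19 blocks include these 42, so the intervals are no test against hg19. By length the order was different, since thinned blocks held 1617 kb (52.9%) and kept blocks 1376 kb (45.0%), with median lengths of 93.6 kb and 33 kb.

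**Figure D3:**
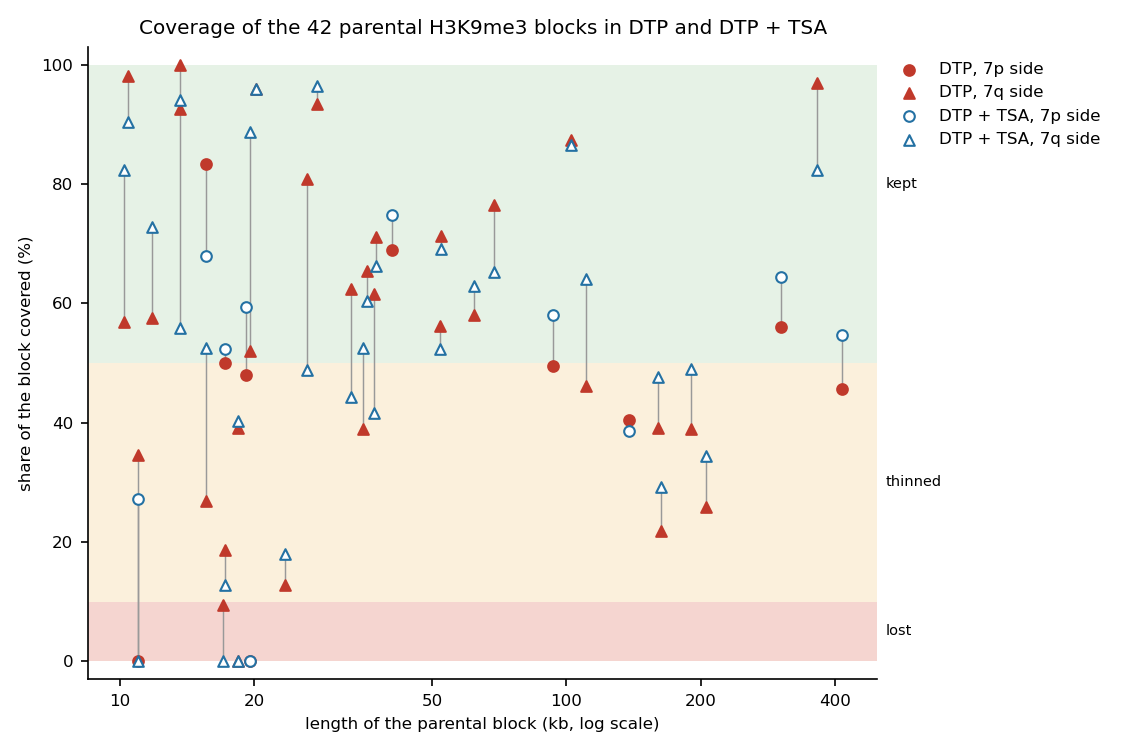
Covered share of each of the 42 parental blocks (y axis, percent) against its length (x axis, kb, log scale), with filled symbols for DTP and open ones for DTP + TSA joined by a line, circles for the 7p side and triangles for the 7q side. Background bands mark the ranges called lost, thinned and kept. Lost blocks are all under 20 kb. The open symbol lies above the filled one in 21 of the 42 blocks, 12 of them among the 15 thinned in DTP, and below it in 18.

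Complete losses were small. The lost blocks were chr7:57426001-57445600 (19.6 kb) and chr7:57638601-57649600 (11.0 kb) on the 7p side, and chr7:64059401-64077800 (18.4 kb) and chr7:62826001-62843000 (17.0 kb) in stretch B. The first and the third of these had no coverage in DTP or in DTP + TSA. The block at 57638601 had 0% in DTP and 27.3% with TSA, and the block at 62826001 had 9.41% and then 0%. In parental cells the 4 blocks had mean signals of 6.32 to 8.20, against 6.58 to 20.01 for thinned blocks and 5.51 to 55.3 for kept ones. The lost blocks thus lay at the weak end of overlapping ranges.

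Longer blocks were not lost whole but broke into pieces. The longest, chr7:56413801-56827800 on the 7p side (414 kb), was 94.98% covered by 14 intervals in parental cells, 45.7% covered by 21 in DTP and 54.7% covered by 22 in DTP + TSA. Its longest uncovered gap in DTP was 46.4 kb. Within it chr7:56500001-56610000 stayed 85.1% covered in DTP, from 99.3%, while the run of lost tiles chr7:56450001-56490000 went from 100% to 0% and reached 46.5% with TSA. Another lost run, chr7:56790001-56850000, which crosses the right border of this block, went from 73.3% to 0% and reached only 5.33% with TSA.

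The next longest thinned blocks, 4 in number, lay in stretch B. Block chr7:63632801-63839000 (206.2 kb) fell to 25.9% in DTP and stood at 34.4% with TSA, and its longest gap in DTP was 51.0 kb. Block chr7:63436401-63627000 (190.6 kb) was at 38.9% and 49.0%, and chr7:63263801-63424400 (160.6 kb) at 39.1% and 47.7%. Block chr7:62615001-62778400 (163.4 kb) was the least covered of the 5 longest thinned blocks, at 21.8% and 29.3%. It contains the longest run of lost tiles of the region, chr7:62620001-62730000, whose 11 tiles went from a mean of 89.5% to 12.4% and 19.3%. In each of these 4 blocks the covered share was higher with TSA than in DTP and still below 50%.

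The longest kept block was chr7:62099401-62463800 (364.4 kb) in stretch A, with 97.0% covered in DTP and 82.4% in DTP + TSA. Its parental mean signal of 7.08 stood at the 31.9th percentile of the parental list, and with TSA it was cut into 37 intervals, against 9 in DTP. The next, chr7:57103601-57407200 on the 7p side (303.6 kb), was only just kept, at 56.1% and 64.5%, and was made of 7 intervals in parental cells, 22 in DTP and 20 with TSA. Close to the centromere on the long arm, chr7:61735801-61804800 (69.0 kb) was a single parental interval with a mean signal of 55.3, at the 98.9th percentile of its list, and was 76.5% covered in DTP and 65.2% with TSA. Its neighbour chr7:61814401-61917000 (102.6 kb) was 87.3% and 86.5% covered. The kept blocks of stretch A thus spanned both weak and strong ends of the parental list.

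The other 4 of the 8 longest kept blocks were shorter, from 40.6 to 62.0 kb. In stretch B, chr7:63189801-63251800 (62.0 kb) was at 58.1% and 62.9%, chr7:64127801-64180200 (52.4 kb) at 71.4% and 69.1%, and chr7:63948601-64000600 (52.0 kb) at 56.2% and 52.3%. On the 7p side chr7:57924001-57964600 (40.6 kb) was at 69.0% and 74.9%. In stretch B, blocks that were kept, thinned and lost alternated within 2.02 Mb, with 9 kept, 9 thinned and 2 lost, and the thinned ones held 71.6% of the block length. The blocks nearest the limit of 50% in DTP were chr7:56834401-56928000 at 49.6%, called thinned, and chr7:57820201-57837400 at 50.0%, called kept.

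**Figure D4:**
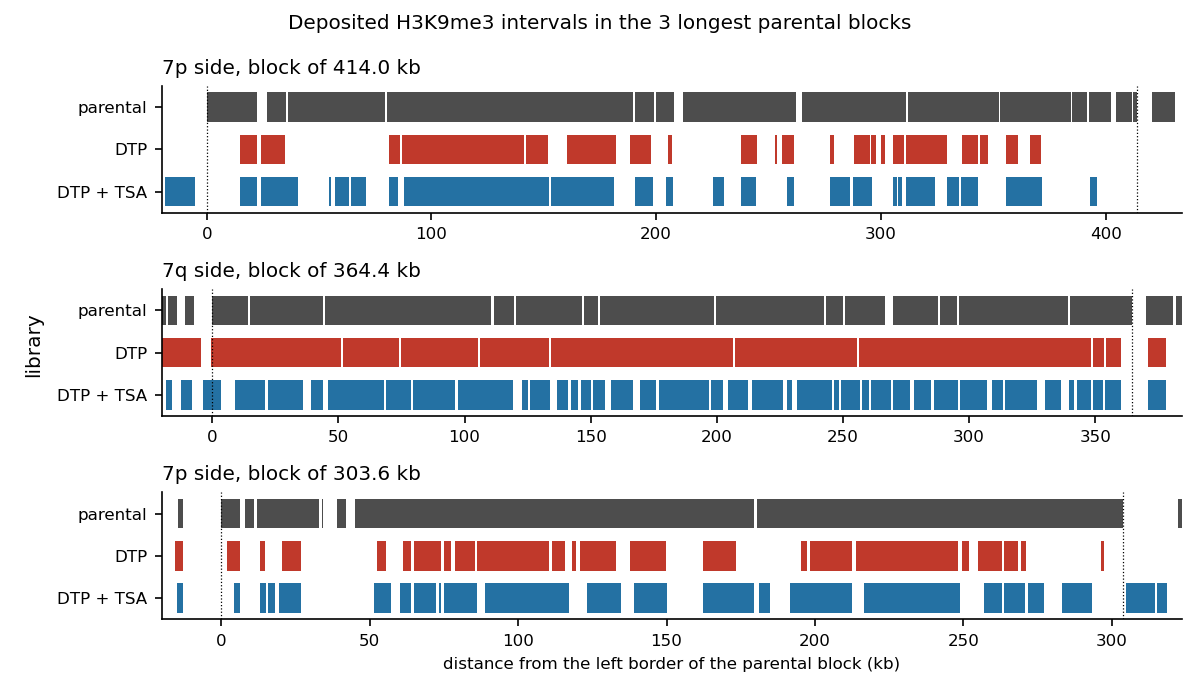
Deposited intervals of each library (rows on the y axis) in the 3 longest parental blocks, drawn to scale against distance from the left border of the block (x axis, kb), with dotted lines at the block borders. The blocks of 414 kb and 303.6 kb on the 7p side have wide gaps in DTP, of up to 46.4 kb and 25.6 kb, while the block of 364.4 kb in stretch A has none over 4 kb in DTP and many short ones with TSA.

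Length and fate went together differently here than in the genome. Of 15 blocks of at least 50 kb, 0 were lost, 8 thinned and 7 kept (46.7%), while elsewhere in hg19 83 of 129 such blocks were kept (64.3%). Their median covered share in DTP was 49.6% in the region and 69.1% elsewhere. Of 10 blocks between 20 and 50 kb, 8 were kept (80%, against 36.9% elsewhere), and of 17 between 10 and 20 kb, 8 were (47.1%, against 41.4%). These groups of blocks are small, and the differences were not tested.

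The borders of kept blocks were compared with the block of the other library that overlapped most. Among 46 borders of the 23 blocks kept in DTP, 16 lay within 1 kb of the parental border, 18 moved inward by more than 1 kb and 12 outward, with a median shift of 0.2 kb inward. This measure uses 1 piece only, so a block that broke up can be given inward shifts by it, and 9 of the 23 blocks overlapped more than 1 DTP block. Against the outermost ends of all overlapping DTP blocks, 18 borders lay within 1 kb, 14 moved inward and 14 outward. Inward and outward shifts were then equal in number. Some borders were held to within a few grid steps of 200 bp. Block chr7:64929401-64955600 of stretch C had its DTP counterpart at chr7:64929401-64955800, and chr7:65180001-65190400 had its counterpart at chr7:65180201-65190600. Of the 12 outward shifts, 7 came from 4 parental blocks of stretch A that lay in 1 DTP block. Without those blocks, and measured to the outermost ends, 7 of 38 borders moved outward and 13 inward. For the 26 blocks kept in DTP + TSA, 13 of 52 borders lay within 1 kb of the parental border, 27 moved inward and 12 outward, and to the outermost ends the counts were 17, 20 and 15.

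That merged DTP block, chr7:61967201-62459800 (492.6 kb), was the longest block of any of the 3 libraries in the region. It joined parental blocks of 13.6, 20.2, 13.6 and 364.4 kb. The stretch before the longest of them, chr7:61967201-62099400, was 34.9% covered by 13 intervals in parental cells, 91.2% by 9 in DTP and 78.1% by 14 in DTP + TSA, and it held 7 of the 12 tiles gained in DTP. With TSA the merged block was divided again, into pieces of 99.2, 28.6 and 351.2 kb. Its left border at 61967201 was the same in DTP and DTP + TSA, and from 61917201 to 61967200 no library had an interval.

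The first interval inside that border carried an extreme value. The DTP interval chr7:61967201-61998800 had a summit signal of 51426 and ranked 4th of 47866 by summit, and the DTP + TSA interval chr7:61967201-61984200 had 43489 and ranked 3rd of 53000. The strongest parental interval there, chr7:61978001-61983200, had a summit of 119. A second such place was on the 7p side, where summits reached 3460 in the parental interval chr7:56440601-56449200, 20585 in the DTP interval chr7:56438001-56448600 and 30040 in the DTP + TSA interval chr7:56438001-56454600. The median summit over the region was 21, 25 and 25 in the 3 libraries. The input libraries at these places were not analysed here, and whether reads from repeats pile up at them, and what part this has in the coverage, was not tested.

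The remaining gains in DTP were at the outer end of the 7p side. In chr7:56300001-56413800 no parental interval was present, while DTP covered 37.3% with 5 intervals and DTP + TSA 44.6% with 5. The 4 gained tiles there started at 56310001, 56330001, 56350001 and 56380001, each at 0% in parental cells and at 80%, 90%, 76% and 64% in DTP. The last gained tile, at 64180001 in stretch B, went from 2% to 54% and was at 0% with TSA. Of the 12 gained tiles, 10 were still at least 50% covered in DTP + TSA. The DTP blocks with under 10% parental coverage were chr7:56375801-56392000 (16.2 kb), chr7:56328201-56339000 (10.8 kb) and chr7:56307601-56318000 (10.4 kb), all at this end, and DTP + TSA covered 54.3%, 50.0% and 94.2% of them.

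Addition of TSA to DTP changed fewer tiles. From DTP to DTP + TSA 14 tiles were gained (2.00%, against 0.787% over hg19), 9 of them on the 7p side, and 4 were lost (0.571%, against 0.238%), all on the 7q side. Only tiles at least 50% covered in DTP could be lost here. Of 191 such tiles in the region 4 were lost, and of 9645 over hg19 737 were, so per such tile loss was lower in the region. Tiles kept between these libraries numbered 167 (23.9%, against 2.11%), which also rests on that starting level. On the 7p side the tile at 56470001 was 100% covered in parental cells, 0% in DTP and 84% with TSA, and that at 56690001 went from 100% to 20% and 90%. In stretch B the tile at 62500001 was at 100%, 0% and 86%, and that at 63570001 at 100%, 0% and 76%. Among the losses, the tile at 61760001 in stretch A was at 100%, 62% and 0%, and that at 64930001 in stretch C at 92%, 62% and 0%. The DTP library enters both this comparison and the one with parental cells, and no second DTP library gives its error.

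Of the 120 tiles lost in DTP, 25 (20.8%) were at least 50% covered in DTP + TSA, against 7.58% over hg19, 22.6% in 19p12 and 7.03% over the rest of chromosome 7. The share was 21.2% on the 7p side and 21.2% in stretch B. A rise of at least 50 points was seen in 10 of the 120 (8.33%, against 4.09%). The mean covered share of the 120 tiles was 88.9% in parental cells, 13.2% in DTP and 28.0% with TSA, against 75.6%, 7.35% and 12.03% for the lost tiles elsewhere in hg19. Of these tiles 66 were higher with TSA than in DTP, 11 lower and 43 equal, and 85 of them also met the rule for loss when DTP + TSA was set against parental cells. In that comparison 102 of the 700 tiles were lost (14.6%, against 1.11% over hg19), 16 gained (2.29%, against 1.70%) and 176 kept (25.1%, against 1.26%). Only tiles at least 50% covered in parental cells could be lost. Of 306 such tiles in the region 102 were lost, and of 9152 over hg19 3422 were, so the share was slightly lower in the region. Tiles kept in DTP, picked for high coverage there, had means of 93.2% in parental cells, 84.3% in DTP and 78.1% with TSA. Lost tiles were picked for a fall in DTP, and 59 of the 120 were at 0% there, so the choice favours a rise with TSA. Grouped by parental coverage alone, tiles at 90 to 100% were higher with TSA than in DTP in 82 cases and lower in 84. Their means were 60.2% in DTP and 63.6% with TSA. Tiles at 50 to 90% were higher in 33 cases and lower in 32. Of the 25 tiles at 50% or more with TSA, 23 had been under 50% in DTP and 2 had been at 50%. The share of 20.8% was higher than over hg19 and close to that of 19p12, and the difference was not tested.

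Among the 42 blocks, 4 were lost in DTP + TSA (9.52%, against 22.8% over hg19), 12 thinned (28.6%, against 37.2%) and 26 kept (61.9%, against 40.0%). Their 95% Clopper-Pearson intervals were 2.66 to 22.6%, 15.7 to 44.6% and 45.6 to 76.4%. As for DTP, these intervals give counting error only and are no test against hg19. The kept blocks held 64.3% of the block length. The longest block, of 414 kb, passed from thinned to kept by this rule, with a change of 45.7% to 54.7%. On the 7p side 7 of 10 blocks were kept with TSA, against 4 in DTP. The 15 blocks thinned in DTP had a median covered share of 38.9% in DTP and 47.7% with TSA. The 23 kept ones had 71.1% and 68.0%. Blocks were sorted by their coverage in DTP, so the sorting itself favours a rise of thinned blocks and a fall of kept ones. Over all 42 blocks the medians were 54.1% in DTP and 55.3% with TSA, with 21 blocks higher with TSA and 18 lower. Block chr7:62493801-62604800 (111.0 kb) rose from 46.1% to 64.1%, whereas chr7:64929401-64955600 fell from 80.9% to 48.9%. The DTP + TSA blocks with under 10% parental coverage included chr7:57007801-57026200 (18.4 kb), chr7:63080401-63097400 (17.0 kb), chr7:57408401-57422000 (13.6 kb), chr7:56395401-56408800 (13.4 kb) and chr7:56373401-56384600 (11.2 kb). The blocks at 57408401 and 56395401 had no coverage in DTP either.

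Split by the libraries that covered it, the region had 1476 kb covered in all 3, which is 49.3% of the parental length. Sequence covered in parental cells alone came to 998 kb (33.3%, against 42.7% over hg19), of which 389 kb lay on the 7p side, 35.8 kb in stretch A and 532 kb in stretch B. Sequence covered in parental cells and DTP + TSA but not in DTP came to 297 kb, which is 22.9% of the parental sequence that DTP lacked, against 14.2% over hg19 and 22.5% in 19p12. Only 287 kb of the DTP coverage, 14.4%, was absent from parental cells, against 61.8% over hg19 and 1.68% in 19p12. In DTP the marked sequence of the region was thus mostly a subset of what parental cells had marked, which was not so for hg19 as a whole. This share depends on starting coverage, which was 42.8% in the region, 3.96% over the rest of hg19 and 90.2% in 19p12. Tiles without parental coverage had a mean of 3.84% in DTP in the region, against 2.98% elsewhere in hg19. By that measure new coverage was not lower in the region. The part of starting coverage in the contrast was not tested.

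**Figure D5:**
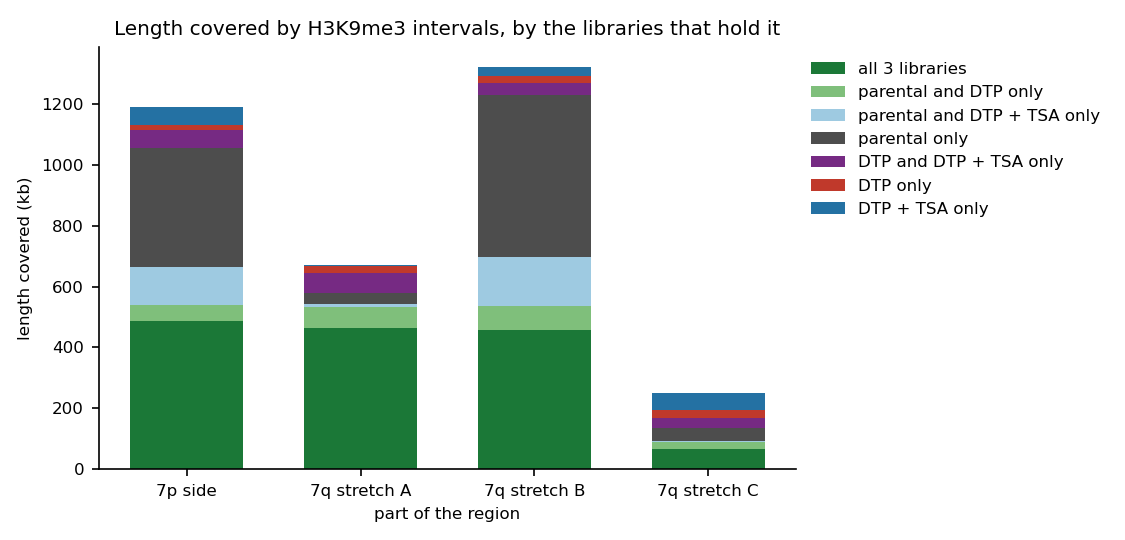
Length of sequence (y axis, kb) in the 7p side and the 7q stretches A, B and C (x axis), with bars divided by the combination of libraries that covered it. Coverage in all 3 libraries has about the same length in the 7p side and in stretches A and B, whereas coverage in parental cells alone comes to 389 kb, 35.8 kb and 532 kb in them.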

How the data were processed

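H3K9me3 interval lists of parental, DTP and DTP + TSA cells, 1 library each, were used as deposited. Each list gives chromosome, start, end, summit position, summit signal, mean signal and number of bins, and the signal values are the authors' own, per the file headers. Per the submitters' processing notes, the tools were BWA and SICER and the builds were hg19 and dm3, with no roles stated. How intervals were thresholded, against which input, and whether libraries were scaled is not given in the sources used here. Signal was therefore ranked within libraries only, and read depth is unknown. Starts and ends lie on steps of 200 bp and no gap was below 800 bp. Positions are 1-based on hg19.

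Covered shares were computed for tiles of 10 kb. In the region 3 tiles that went from 100% to 50% met the rules for lost and kept and were counted as lost. Blocks were assigned to a stretch by their midpoint. The text names the 8 longest lost and kept blocks, the 5 longest thinned ones and the 5 longest of DTP and of DTP + TSA with under 10% parental coverage, or all where there were fewer. Tiles named singly and the extreme summits were chosen after their values were seen. Members, lists and rules were chosen with earlier results of these data known. Chromosome lengths and bands came from circlize 0.4.16 under R 4.3.3. All else was done in Python 3.11.15 (pandas 2.3.3, numpy 2.4.6, matplotlib 3.10.9, scipy 1.17.1). In a self-test on built intervals, 10 of 10 checks gave the known answer. Of 30 listed gene symbols, 30 were found in the RefSeq table of GRCh38.p14, which served for gene order only.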

Additional observations from a re-analysis of the deposited data

How the results depend on the processing

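With 1 library per group, leaving out a replicate was not possible. No paired analysis was possible because each group has 1 sample and no result comes from a test. Of 84 values for tiles, blocks and covered length under other settings, 43 lay within 1.5 times the reported one and 41 did not. The reported tile lengths are 1200 kb lost, 1660 kb kept and 120 kb gained from parental cells to DTP, 40 kb lost and 140 kb gained with TSA, and 100 kb regained. With tiles shifted by 5 kb, TSA lost was 70 kb, TSA gained 230 kb and regained 170 kb. Tiles of 5 kb gave gained 185 kb, TSA lost 135 kb, TSA gained 285 kb and regained 205 kb. Tiles of 20 kb gave TSA lost 0 kb, TSA gained 40 kb and regained 40 kb. Joining intervals over 5 kb gave gained 200 kb, TSA lost 170 kb, TSA gained 370 kb and regained 260 kb. A limit of 30 points gave gained 280 kb, TSA lost 250 kb, TSA gained 440 kb and regained 370 kb. A limit of 70 points gave lost 660 kb, gained 70 kb, TSA lost 0 kb, TSA gained 80 kb and regained 60 kb. With intervals at or above the median signal of their library, kept was 780 kb, TSA lost 190 kb, and covered length 1057 kb in DTP and 1077 kb in DTP + TSA. With equal numbers of the strongest intervals, lost was 2100 kb, kept 830 kb, gained 70 kb, TSA lost 200 kb, and covered length 1057 kb in DTP and 1035 kb in DTP + TSA. The median setting cuts all 3 lists, with 2098 kb covered in parental cells, while equal numbers leaves the parental list whole and uses fewer DTP and DTP + TSA intervals. Among blocks, where 4 were lost and 23 kept, a shortest block of 20 kb gave 0 lost and 15 kept, limits of 30% and 70% gave 9 and 12, equal numbers gave 14 and 12, and intervals at or above the median gave 8 and 15. Measuring borders to the outermost ends of all overlapping blocks was added after the data were seen, and moved no border count by over 1.5 times. Unknown depth and thresholds limit every comparison between libraries.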
